A study of Mus musculus with 6 samples.

Results

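Transcripts of 44 genes of the peroxisome were followed in kidneys of mice given cationic polystyrene nanoparticles by mouth. They are 13 peroxins, which build the organelle, 12 enzymes grouped under fatty acid beta oxidation, 2 of alpha oxidation, and an oxidase and catalase. The others are 8 genes of acyl transport and coenzyme A turnover, 3 of ether lipid synthesis, and 4 membrane and other proteins. The genes were taken by name from a given list and found by matching Ensembl gene IDs to mouse symbols, and all 44 were found among the 57180 listed genes. All 44 also passed the filter on low counts, as part of 18092 genes tested.

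Peroxisomes are small membrane-bound organelles that shorten very-long-chain, branched and dicarboxylic fatty acids, start the synthesis of ether lipids, and hold oxidases whose hydrogen peroxide is broken down by catalase. They have no DNA, so peroxins import every matrix enzyme from the cytosol. In the kidney they are most abundant in the proximal tubule, above all in its straight S3 segment, and many of their genes respond to the nuclear receptor PPAR alpha in rodents.

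RNA was sequenced from kidney tissue of male wild-type C57BL/6J mice bought at 7 weeks of age. The nanoplastic group (200 mg/kg, once daily for 6 weeks, 3 mice) was compared with the vehicle group (deionized water, 0 mg/kg, 3 mice), with 1 library per mouse. Each library held 19408534 to 26292760 expected counts. Levels are given as CPM, which are counts scaled to library size with TMM factors, or, where genes are compared with each other, as TPM, which is per transcript length. In tissue RNA, fewer cells of a type and less RNA per cell cannot be told apart.

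Libraries differed in tissue content within groups. Summed adipocyte markers, 8 genes led by Cfd and Adipoq, stood at 112 CPM in nanoplastic 1 and at 0.125 and 0.156 CPM in nanoplastic 2 and 3, against 29.1 CPM in vehicle 3 and 0.195 and 0.867 CPM in vehicle 1 and 2. Adipoq, which encodes adiponectin, was at 0 counts in nanoplastic 2 and vehicle 1. Collecting duct principal cell markers (5 genes) summed to 281 CPM in nanoplastic 1, against 148 to 173 CPM in the other 5 libraries, and urothelial markers (5 genes) to 17.4 CPM, against 1.70 to 5.46 CPM. Of the principal cell markers, Aqp2 was at 148.7 CPM in nanoplastic 1, against 43.3 to 61.7 CPM elsewhere, and Fxyd4 and Avpr2 were also highest there. Aqp3 was highest in nanoplastic 2 and Scnn1g in vehicle 1. Intercalated cell markers (4 genes) summed to 114 CPM in nanoplastic 1, against 152 to 181 CPM elsewhere. For markers of blood, macrophages and fibroblasts no adjusted p was under 0.05, and their counts at an unadjusted p under 0.05 are set against 3.5% of all genes tested that were lower at that threshold. Summed erythrocyte markers, with 5 of 5 lower at that threshold, were 626, 488 and 532.5 CPM in nanoplastic mice, against 822, 861 and 579 CPM in vehicle mice, with overlap between nanoplastic 1 and vehicle 3. Macrophage markers, with 5 of 5 negative and 1 lower at that threshold, were 68.1 to 72.1 CPM in nanoplastic, against 76.65 to 80.4 CPM in vehicle kidneys. Fibroblast markers, with 4 of 4 negative and 2 lower at that threshold (Col1a1 and Col3a1), were 155 to 210.0 CPM in nanoplastic, against 192 to 249.8 CPM in vehicle kidneys, again with overlap. The part of these cells in the peroxisome values was not tested. Summed proximal tubule markers were abundant in every library, as the tissue label requires. They stood at 13490 to 16090 CPM for the S1 and S2 segments and at 3041 to 3651 CPM for S3. Lrp2, the endocytic receptor megalin, was at 7197 to 8684 CPM in nanoplastic and 8409 to 8748 CPM in vehicle kidneys. Slc7a12 of the S3 list was rare, at 2.17 to 4.47 CPM in nanoplastic and 2.69 to 4.21 CPM in vehicle kidneys.

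In nanoplastic kidneys the peroxisome genes with the lowest p-values were Hao2, a peroxisomal 2-hydroxy acid oxidase, which was higher, and Mpv17l, a membrane protein placed at the peroxisome in mice, which was lower. Ehhadh, Pecr, Nudt19, Crot, Abcd3, Gnpat and Far1 were lower and Abcd4 was higher, each at an unadjusted p under 0.05. None of the 44 passed the test over all genes. With edgeR's quasi-likelihood test and Benjamini-Hochberg adjustment, 0 of 44 had an adjusted p under 0.05, where the background share is 0% of 18092 genes, and their lowest adjusted p was 0.314. On the same libraries limma-voom called 0 members and DESeq2 called 2, which were Hao2 (adjusted p = 0.00270) and Mpv17l (adjusted p = 0.000163). Without the filter on low counts, edgeR called 4, which were Hao2 (adjusted p = 0.00817), Mpv17l (0.00127), Nudt19 (0.00549) and Ehhadh (0.0466).

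At an unadjusted p under 0.05 there were 10 of 44 members, or 22.7%, against 7.19% of all genes tested. Of these, 2 were higher, or 4.5%, against 3.69% of all genes, and 8 were lower, or 18.2%, against 3.5% of all genes. The number of lower members was 5 without nanoplastic 1, against 3.34% of all genes, and 5 without vehicle 2, against 1.71% of all genes. The number of higher members was 1 without vehicle 2, against 2.12% of all genes, and 1 without vehicle 3, against 4.17% of all genes. Without nanoplastic 1 and vehicle 3 together, a comparison of 2 with 2 mice chosen with the adipocyte values known, 6 members were lower and 4 were higher, against 4.44% and 5.4% of all genes. Hao2, Mpv17l, Ehhadh, Pecr and Nudt19 kept an unadjusted p under 0.05 and their direction under each of the 13 alternatives run, and no other member did. With single libraries left out, Abcd3 no longer met that threshold without nanoplastic 1 or without any 1 of the vehicle libraries, and Crot without nanoplastic 1, vehicle 1 or vehicle 2. Gnpat met it only without vehicle 3, Far1 only without nanoplastic 3 or vehicle 1, and Abcd4 only without nanoplastic 1, nanoplastic 3 or vehicle 1.

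Groups did not overlap in 8 members, or 18.2%, against 12.9% of all genes tested. Hao2 and Abcd4 were the 2 that were higher in each nanoplastic library than in any vehicle library, against 6.54% of all genes. Mpv17l, Ehhadh, Pecr, Abcd3, Gnpat and Far1 were the 6 that were lower, or 13.6%, against 6.32% of all genes. In TPM as deposited the median gene was higher by 0.07 in log2, and then Hao2 alone was higher and Ehhadh and Mpv17l alone were lower without overlap, against 6.82% and 2.65% of all genes.

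**Figure D1:**
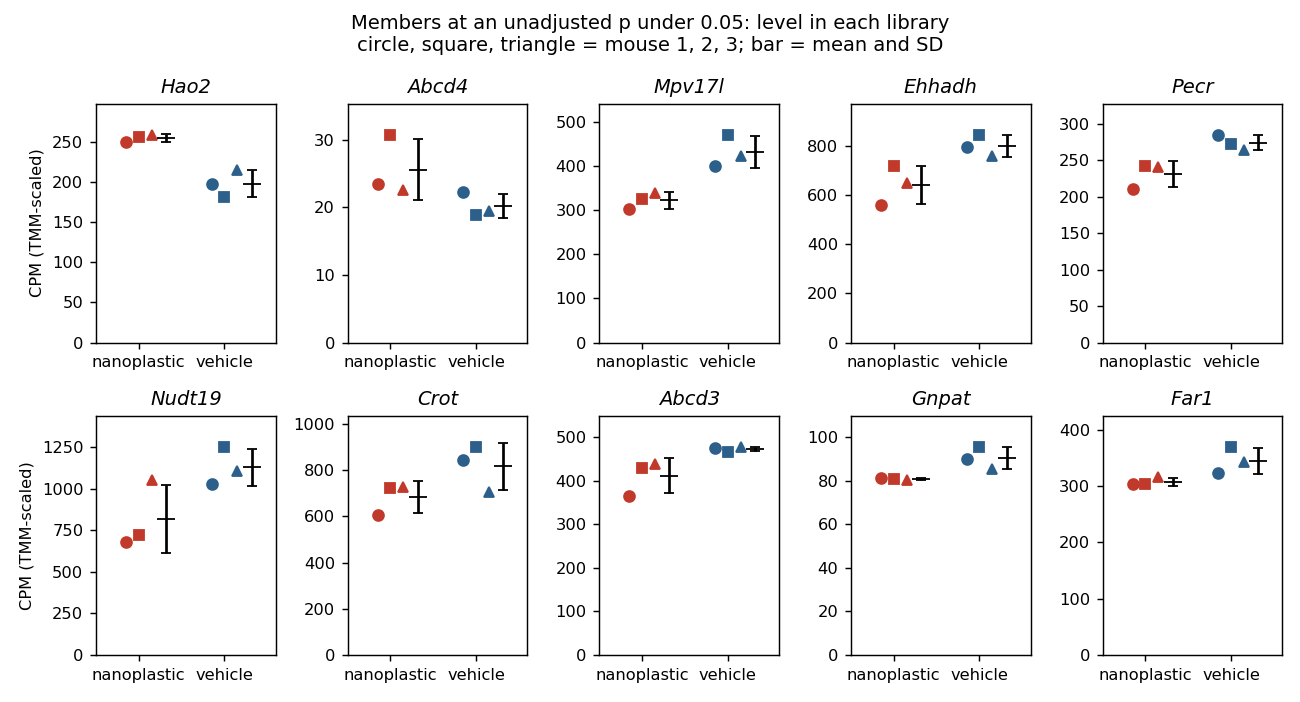
TMM-scaled CPM of the 10 members at an unadjusted p under 0.05, with nanoplastic mice (red) left of vehicle mice (blue), 1 point per library and bars for the mean and SD (n = 3 each). Every axis starts at 0. Hao2 and Abcd4 are higher in nanoplastic and the other 8 lower, and the groups overlap in Nudt19 and Crot.

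Hao2 (ENSMUSG00000027870) oxidizes long-chain 2-hydroxy acids and releases hydrogen peroxide. It measured 249.5, 256 and 258 CPM in nanoplastic mice 1, 2 and 3, against 197, 181 and 215 CPM in vehicle mice 1, 2 and 3. The nanoplastic libraries lay close together and all above the vehicle libraries, which were more spread. The means were 255 ± 4.60 CPM in nanoplastic and 197 ± 16.9 CPM in vehicle kidneys (SD, n = 3 each), a log2 fold change of 0.37 (SE 0.07, edgeR adjusted p = 0.317). Cat, the catalase that breaks hydrogen peroxide down, measured 709.5, 886.5 and 839 CPM in nanoplastic mice, against 793, 684 and 885 CPM in vehicle mice. Its groups overlapped widely, and the log2 fold change was 0.04 (SE 0.11), turning to -0.03 without nanoplastic 2 and to -0.05 without vehicle 2. The 95% interval for catalase ran from -0.19 to 0.28.

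The DNA before the annotated start of Hao2 is printed because this gene had the lowest p of the higher members, beside that of Ehhadh, the beta oxidation gene with the lowest p. Each is 250 bases from RefSeq on GRCm38.p6, on the minus strand, at chr3:98893231-98893480 for Hao2 and chr16:21787835-21788084 for Ehhadh. Capitals mark GTTAAT or its reverse ATTAAC, the core of the HNF1 motif, and CCAAT or its reverse ATTGG, the box bound by NF-Y.
Hao2: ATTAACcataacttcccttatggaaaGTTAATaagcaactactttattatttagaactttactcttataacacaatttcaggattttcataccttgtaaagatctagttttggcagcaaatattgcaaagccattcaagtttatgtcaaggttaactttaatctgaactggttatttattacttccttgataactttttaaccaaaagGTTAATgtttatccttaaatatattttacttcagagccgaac
Ehhadh: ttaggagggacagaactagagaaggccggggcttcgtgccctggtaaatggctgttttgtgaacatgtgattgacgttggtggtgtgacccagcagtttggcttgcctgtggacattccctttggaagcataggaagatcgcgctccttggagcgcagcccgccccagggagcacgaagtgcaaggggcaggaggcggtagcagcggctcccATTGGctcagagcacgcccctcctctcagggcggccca

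The Hao2 window holds 3 matches to GTTAAT on either strand and 28.4% G and C, with 1 CpG. Of all 32851 windows of the same length 0.956% had a lower content of G and C, and 6.43% held GTTAAT. The Ehhadh window holds 1 CCAAT box and has 60.4% G and C with 12 CpG. CCAAT was found in 33.8% of all windows and in 48.8% of the 41 windows of members, which belong to 35 members, 18 of them with a match. The median content of G and C was 56.4% in the members' windows, against 52.4% in all windows. Among the members with a window, Hao2 and Pex26 alone held GTTAAT. The core of the PPAR response element, which is AGGNCA, any 1 base and AGGNCA again, was searched on both strands. It matched 0.338% of all windows and none of the 41 windows of members. At so low a share hardly any match would fall in 41 windows, so this count cannot decide whether members have the element. The hexamer AGGTCA, searched in the same way, was found for Acot4, Cat, Pex11g and Scp2, in 9.76% of the members' windows, against 14.0% of all windows.

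Mpv17l (ENSMUSG00000022679) belongs to the Mpv17 family of membrane proteins and has been tied to the handling of reactive oxygen. Its level was 302, 324 and 339.9 CPM in nanoplastic mice 1, 2 and 3, against 401, 471 and 423 CPM in vehicle mice 1, 2 and 3. Every nanoplastic library lay below every vehicle library, and vehicle 2 was the highest. The means were 322 ± 19.05 CPM in nanoplastic and 432 ± 35.6 CPM in vehicle kidneys (SD, n = 3 each), with a log2 fold change of -0.42 (SE 0.08, edgeR adjusted p = 0.314). Over the 13 alternatives the log2 fold change ran from -0.47 to -0.36.

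Pxmp2 and Pxmp4, channel and membrane proteins of the peroxisome, and Vnn1, a PPAR alpha target that splits pantetheine at the cell surface and is not a peroxisomal enzyme, did not separate the groups. Pxmp2 measured 34.4, 42.6 and 43.7 CPM in nanoplastic mice, against 41.2, 33.4 and 33.9 CPM in vehicle mice, so nanoplastic 1 lay within the vehicle range. Pxmp4 had a log2 fold change of -0.05 (SE 0.11). Vnn1 was lowest in nanoplastic 1 at 53.6 CPM and highest in nanoplastic 2 at 94.6 CPM, with 69.5 to 82.7 CPM in vehicle kidneys.

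In the core steps of beta oxidation, Ehhadh was the 1 of 7 members whose groups did not overlap. That is 14.3%, against 12.9% of all genes tested in either direction and 6.32% lower. Ehhadh (ENSMUSG00000022853) is the L-bifunctional enzyme, which hydrates and dehydrogenates acyl-CoA and serves the breakdown of dicarboxylic acids. It measured 562, 718 and 648 CPM in nanoplastic mice 1, 2 and 3, against 798, 846 and 758.5 CPM in vehicle mice 1, 2 and 3. Nanoplastic 1 was the lowest library, and nanoplastic 2, the highest of its group, was still below vehicle 3. The log2 fold change was -0.32 (SE 0.09, edgeR adjusted p = 0.526), and -0.23 without nanoplastic 1.

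The other 6 core genes had log2 fold changes between -0.11 and 0.10 and no unadjusted p under 0.05. Scp2, which encodes a thiolase and the sterol carrier protein 2, had the highest TPM of all members. It stood at 615, 693 and 686 CPM in nanoplastic mice, against 726, 742 and 679 CPM in vehicle mice, with overlap through vehicle 3 (log2 fold change -0.11, SE 0.07). The branched-chain oxidases Acox2 and Acox3, which take the first step for bile acid intermediates and branched fatty acids, differed by 0.04 (SE 0.09) and -0.05 (SE 0.09) in log2. Hsd17b4, the D-bifunctional enzyme that catalyzes the same steps as Ehhadh on other substrates, had one of -0.08 (SE 0.08). Acaa1a and Acaa1b, near-identical thiolases of mice between which reads may be split uncertainly, summed to 242, 314 and 262 CPM in nanoplastic mice, against 280.0, 231 and 275 CPM in vehicle mice. This sum was highest in nanoplastic 2 and lowest in vehicle 2, and the groups overlapped.

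Of 5 enzymes grouped as auxiliary to beta oxidation, Pecr (ENSMUSG00000026189), the peroxisomal trans-2-enoyl-CoA reductase, alone was lower at an unadjusted p under 0.05. That is 20.0%, against 3.5% of all genes tested. The grouping is by list, and a part of Pecr in beta oxidation was not tested. Pecr measured 211, 242 and 241 CPM in nanoplastic mice 1, 2 and 3, against 285, 272 and 264 CPM in vehicle mice 1, 2 and 3. The groups did not overlap, with nanoplastic 1 the lowest (log2 fold change -0.24, SE 0.07, edgeR adjusted p = 0.542). Amacr, the racemase for branched acyl-CoA, had a log2 fold change of -0.14 (SE 0.10), which was -0.04 without nanoplastic 1. Eci2 and Decr2, an isomerase and a reductase for double bonds, stood at log2 fold changes of -0.02 (SE 0.08) for Eci2 and 0.05 (SE 0.115) for Decr2. Ech1, a dienoyl-CoA isomerase found in peroxisomes and mitochondria, stood at 319, 372 and 377 CPM in nanoplastic mice, against 372, 363 and 351 CPM in vehicle mice. Its nanoplastic libraries held both the lowest and the highest value.

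Alpha oxidation removes a carbon from phytanic acid, with Phyh hydroxylating its CoA ester and Hacl1 splitting the product. Phyh measured 358, 473 and 456 CPM in nanoplastic mice, against 448, 460.1 and 427 CPM in vehicle mice. Nanoplastic 1 was below all others while nanoplastic 2 was above all, and the log2 fold change of -0.05 (SE 0.10) turned to 0.06 without nanoplastic 1. Hacl1 had a log2 fold change of 0.10 (SE 0.09), and its reads may be shared with the more abundant Btd, whose exons it overlaps on the opposite strand.

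Among the 8 genes grouped under acyl transport and coenzyme A turnover, 4 had an unadjusted p under 0.05, against 7.19% of all genes tested. These were Nudt19, Crot and Abcd3, and Abcd4, which moves no acyl groups. Nudt19 (ENSMUSG00000034875), which cleaves coenzyme A in mouse kidney peroxisomes, measured 677, 720.1 and 1051 CPM in nanoplastic mice 1, 2 and 3, against 1026, 1249 and 1106 CPM in vehicle mice 1, 2 and 3. Nanoplastic 3 lay within the vehicle range while nanoplastic 1 and 2 lay below it. The log2 fold change was -0.47 (SE 0.15, edgeR adjusted p = 0.554), the lowest of the 44. Crot, which moves medium-chain acyl groups to carnitine for export to mitochondria, measured 606, 721.5 and 729 CPM in nanoplastic mice, against 846, 899 and 705 CPM in vehicle mice. Vehicle 3 was below nanoplastic 2 and 3, and the log2 fold change was -0.25 (SE 0.10, edgeR adjusted p = 0.653).

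The ABC transporters of the D family went in different directions. Abcd3, the transporter known as PMP70 that admits branched and dicarboxylic acyl-CoA, measured 365, 429 and 438.5 CPM in nanoplastic mice, against 474, 466 and 476 CPM in vehicle mice. The vehicle libraries were nearly equal and all above nanoplastic (log2 fold change -0.20, SE 0.08, edgeR adjusted p = 0.633). Without nanoplastic 1 it was -0.12, and its unadjusted p was no longer under 0.05. Abcd4, which despite its family is a cobalamin transporter of the lysosome, measured 23.4, 30.7 and 22.6 CPM in nanoplastic mice, against 22.3, 18.8 and 19.5 CPM in vehicle mice. Nanoplastic 3 and vehicle 1 nearly touched, and nanoplastic 2 stood above the others (log2 fold change 0.34, SE 0.12, edgeR adjusted p = 0.606). Without nanoplastic 2 the log2 fold change of Abcd4 was 0.19.

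Abcd2, a very-long-chain acyl-CoA transporter known in mice from fat and brain, was the rarest member. It had 4.95, 0.334 and 0.520 CPM in nanoplastic mice 1, 2 and 3, against 0.624, 0.520 and 1.40 CPM in vehicle mice 1, 2 and 3. Its highest values were in nanoplastic 1 and vehicle 3, the libraries with the adipocyte transcripts given above, whose part in this result was not tested. The log2 fold change of 1.22 (SE 0.83) turned to -0.999 without nanoplastic 1. The thioesterases Acot3, Acot4 and Acot8, which free fatty acids from coenzyme A, gave estimates of -0.31 (SE 0.16), -0.165 (SE 0.10) and -0.16 (SE 0.12) in log2. Acot3 and Acot4 are closely related copies, between which reads may be split uncertainly, and their sum was 49.1, 63.2 and 61.2 CPM in nanoplastic mice, against 61.99, 62.1 and 73.6 CPM in vehicle mice.

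The 3 genes that start ether lipid synthesis had negative estimates under each of the scalings run. In the main fit 48.1% of all genes tested had a negative estimate, and none of the 3 passed the adjusted test. Gnpat and Far1 had an unadjusted p under 0.05, or 66.7%, against 3.5% of all genes tested that were lower at that threshold. Neither kept it with scaling by library size alone. Gnpat, which acylates dihydroxyacetone phosphate, measured 81.2, 80.5 and 80.2 CPM in nanoplastic mice, against 90.1, 95.3 and 85.3 CPM in vehicle mice. The nanoplastic values were nearly equal and all below vehicle (log2 fold change -0.16, SE 0.07, edgeR adjusted p = 0.652). Its exons overlap another gene on the opposite strand, so part of its reads may come from there. Far1, which makes the fatty alcohol for the ether bond, measured 304, 303 and 316 CPM in nanoplastic mice, against 323, 369 and 343 CPM in vehicle mice. Again no library overlapped (log2 fold change -0.165, SE 0.07, edgeR adjusted p = 0.662). Agps, which exchanges the acyl for the alkyl chain, measured 639, 731 and 765 CPM in nanoplastic mice, against 766, 822 and 744 CPM in vehicle mice, with overlap through vehicle 3 (log2 fold change -0.13, SE 0.08, and -0.05 without nanoplastic 1). In CPM the groups were apart and lower for Gnpat and Far1, or 66.7%, against 6.32% of all genes tested. In TPM the groups of all 3 genes overlapped.

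The 13 peroxins had log2 fold changes from -0.15 to 0.08. None had an unadjusted p under 0.05, against 7.19% of all genes tested, and in none were the groups apart, against 12.9%. With 13 genes, such shares would give few in either case. Pex19, the chaperone of membrane proteins and the most abundant peroxin in TPM, stood at 97.1, 104 and 97.6 CPM in nanoplastic mice, against 99.2, 104.5 and 103 CPM in vehicle mice. Its log2 fold change was -0.04 (SE 0.06), turning to 0.007 with scaling by library size alone. Pex3 and Pex16, which anchor Pex19 at the membrane, gave log2 estimates of -0.11 (SE 0.07) and -0.13 (SE 0.09). The cargo receptors Pex5 and Pex7, which bind the carboxy-terminal and amino-terminal import signals, had 0.05 (SE 0.08) and -0.08 (SE 0.07).

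The docking proteins Pex13 and Pex14 gave log2 estimates of -0.05 (SE 0.07) and -0.06 (SE 0.07). Pex2 and Pex10, subunits of the ubiquitin ligase that recycles Pex5, had -0.03 (SE 0.07) and 0.08 (SE 0.10), and Pex6 and its anchor Pex26, which pull Pex5 out of the membrane, had -0.06 (SE 0.07) and -0.02 (SE 0.08). Pex11a, an inducible factor of peroxisome division and a PPAR alpha target in rodents, had the lowest value of the peroxins at -0.15 (SE 0.09), and Pex11g had -0.04 (SE 0.10). These are the estimates of a group in which 11 of 13, or 84.6%, were negative, against 48.1% of all genes tested. The median of the peroxins was -0.05, which was -0.006 with scaling by library size alone and -0.005 without nanoplastic 1.

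**Figure D2:**
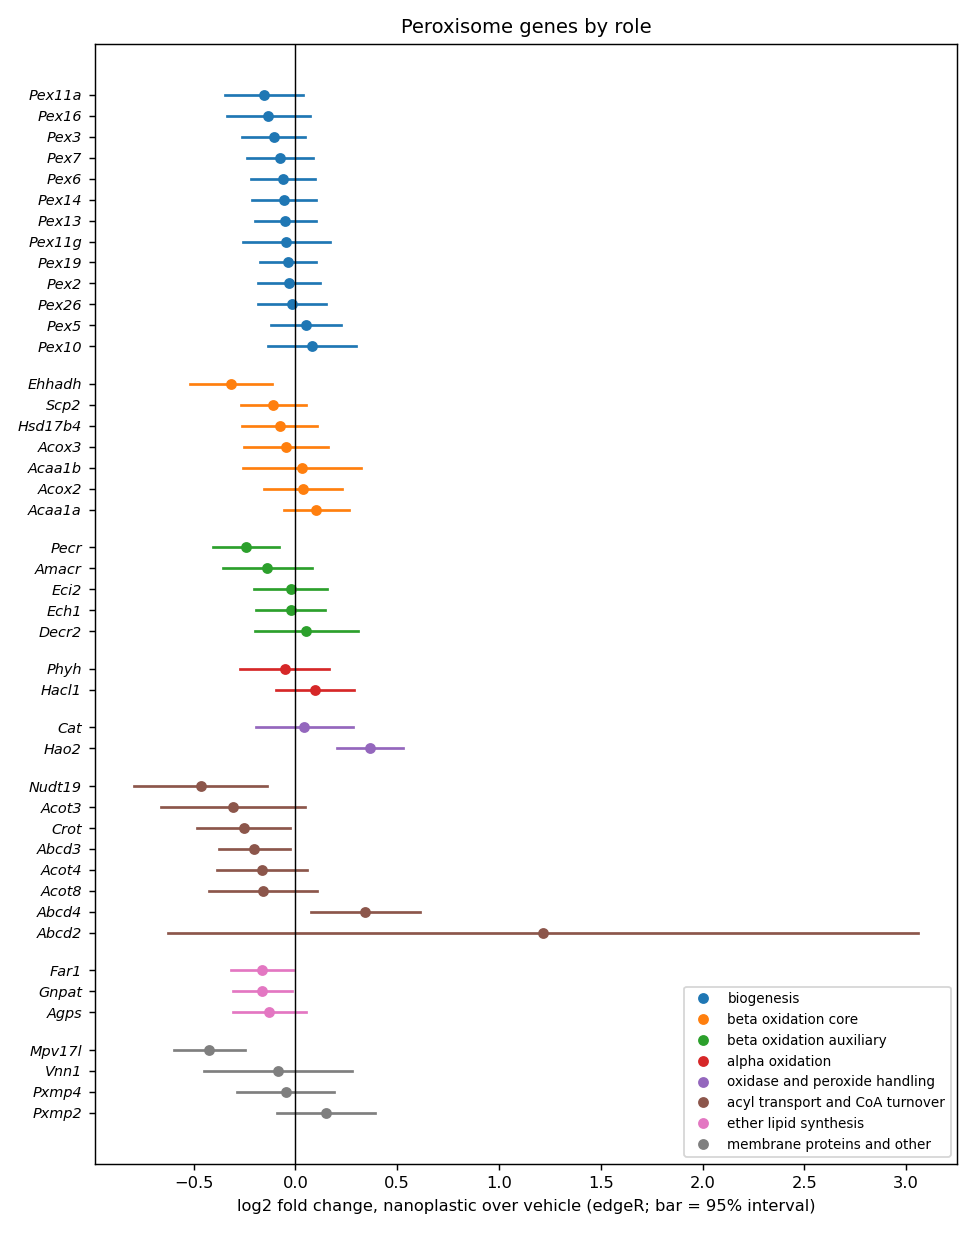
Log2 fold change of nanoplastic over vehicle for all 44 members, from edgeR, with 95% intervals and grouped by role from biogenesis at the top to membrane proteins at the bottom. The peroxins lie between -0.15 and 0.08 and all their intervals include 0, Hao2 and Mpv17l lie furthest from 0 relative to their intervals, and Abcd2 has the widest interval.

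For most members the interval set a bound on the difference. The 95% interval lay within a fold of 1.5 in either direction for 39 of 44 members, or 88.6%, and within 2 for 43, or 97.7%, against 63.1% and 83.9% of all genes tested. Abcd2 was the member whose interval reached beyond 2-fold.

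Of the 44 estimates 32 were negative, or 72.7%, against 48.1% of all genes tested. The median log2 fold change of the members was -0.05, against 0.01 over all genes tested. Nanoplastic 1 was the lowest of the 6 libraries in 28 of 44 members, or 63.6%, against 19.4% of all genes tested. Without it 23 of 44 estimates were negative and the median was -0.005, and without nanoplastic 1 and vehicle 3 together 20 of 44 were negative and the median was 0.01. With scaling by library size alone 27 of 44 were negative, against 36.3% of all genes tested, and the median of the members was -0.01, against 0.05 for all genes.

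By role, nanoplastic 1 held the lowest level in 5 of 5 auxiliary enzymes, 5 of 7 core enzymes, 6 of 8 transport and turnover genes and 7 of 13 peroxins. The mean log2 level of the auxiliary enzymes, relative to the vehicle mean, was -0.27 in nanoplastic 1 and 0.002 and 0.02 in nanoplastic 2 and 3, against -0.02 to 0.03 in vehicle kidneys. For the core enzymes it was -0.22, 0.08 and -0.04 in nanoplastic 1, 2 and 3, against -0.05 to 0.07 in vehicle kidneys. Acyl transport and coenzyme A turnover stood at -0.004, -0.22 and -0.13 in nanoplastic 1, 2 and 3, against -0.07 to 0.14 in vehicle kidneys. Nanoplastic 1 was the highest of its group in this mean, though it was the lowest library in 6 of the 8 genes. The mean gives equal weight to the rare Abcd2, at 4.95, 0.334 and 0.520 CPM in nanoplastic 1, 2 and 3. The oxidase and catalase stood at 0.10, 0.28 and 0.25 in nanoplastic 1, 2 and 3, against -0.16 to 0.15 in vehicle kidneys. Ether lipid synthesis stood at -0.204, -0.145 and -0.105 in nanoplastic 1, 2 and 3, against -0.05 to 0.09 in vehicle kidneys, so the groups did not overlap.

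Low values in nanoplastic 1 were also seen in nephron markers, and not only in those of the proximal tubule. The same mean over 8 markers of the proximal tubule S1 and S2 segments was -0.17 in nanoplastic 1 and 0.02 and 0.04 in nanoplastic 2 and 3, against -0.04 to 0.03 in vehicle kidneys. For 9 markers of the S3 segment it was -0.28, -0.20 and -0.065 in nanoplastic 1, 2 and 3, against -0.059 to 0.056 in vehicle kidneys, and the groups did not overlap. All 9 S3 markers had a negative estimate, against 48.1% of all genes tested, and 3 were lower at an unadjusted p under 0.05, or 33.3%, against 3.5% of all genes. They were Slc22a7, an organic anion transporter (log2 fold change -0.68, SE 0.14), Cyp7b1, an oxysterol hydroxylase (-0.33, SE 0.11), and Slc22a13, a urate transporter (-0.19, SE 0.08). The S1 and S2 markers had 6 of 8 negative, and Slc5a12, a lactate transporter, was higher at an unadjusted p under 0.05 (0.19, SE 0.07), or 12.5%, against 3.69% of all genes. The same mean in nanoplastic 1, 2 and 3 was -0.404, 0.056 and 0.139 for intercalated cells, against -0.054 to 0.033 in vehicle kidneys. For the distal convoluted tubule it was -0.214, -0.216 and 0.241, against -0.11 to 0.155. Podocyte markers stood at -0.141, 0.03 and 0.169, against -0.099 to 0.094. In the thick ascending limb nanoplastic 3 was lowest, and principal cells were highest in nanoplastic 1 at 0.652. The part of these markers in the peroxisome values was not tested.

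**Figure D3:**
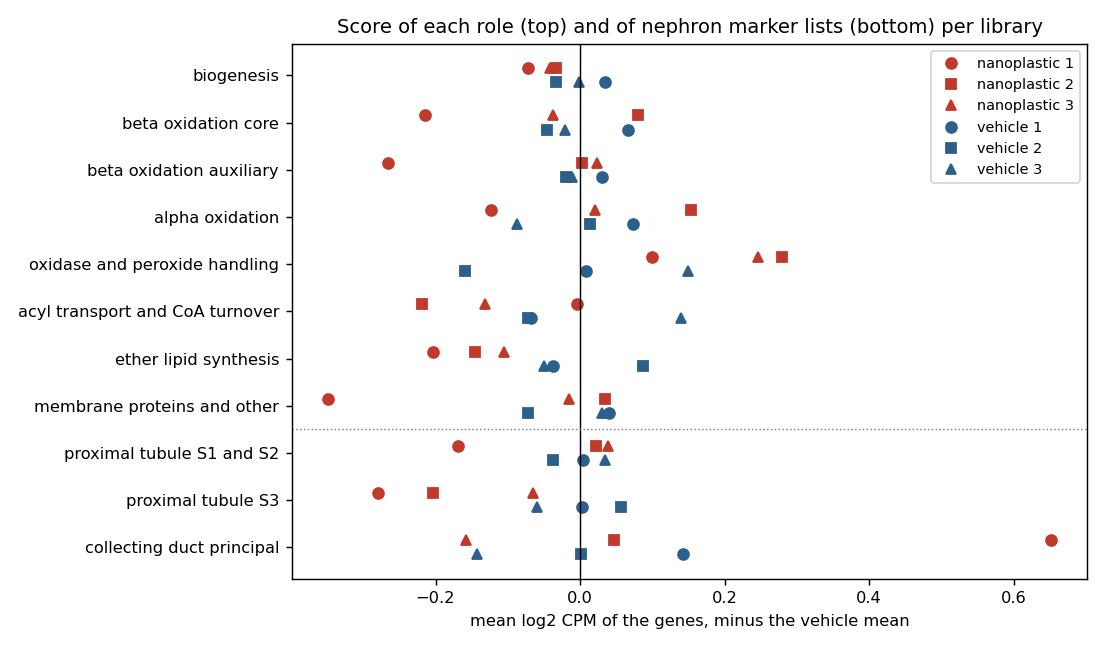
Mean log2 CPM of the genes of each role, and below the dotted line of 3 nephron marker lists, relative to the vehicle mean, with nanoplastic libraries (red) above vehicle libraries (blue) in each row. Nanoplastic 1 (red circle) is lowest for the core and auxiliary beta oxidation enzymes and for both proximal tubule lists. It is highest for the markers of collecting duct principal cells, and intercalated cells are not plotted. The 3 nanoplastic libraries all lie below vehicle for ether lipid synthesis.

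Levels per transcript length spanned a wide range over the members. Scp2 was the most abundant, with 467 ± 28.4 TPM in nanoplastic and 473 ± 14.1 TPM in vehicle kidneys (SD, n = 3 each). Nudt19 came next, with 363.5 ± 83.9 TPM in nanoplastic and 496 ± 36.7 TPM in vehicle kidneys. In vehicle kidneys the ranges of the 2 genes overlapped, while in nanoplastic 1 and 2 Scp2 was the higher. Phyh, Ech1 and Cat followed at 191 ± 25.1, 182 ± 13.3 and 179.7 ± 21.2 TPM in nanoplastic and 187.5 ± 6.31, 177 ± 8.49 and 168 ± 32.2 TPM in vehicle kidneys, which do not differ beyond their spread.

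The peroxins were among the rarer members. Pex19 led them at 31.1 ± 2.83 TPM in nanoplastic and 30.4 ± 2.33 TPM in vehicle kidneys, and Pex26 was the rarest at 3.13 ± 0.222 TPM in nanoplastic and 3.06 ± 0.202 TPM in vehicle kidneys. Abcd2 was the rarest of all members, at 0.283 ± 0.265 TPM in nanoplastic and 0.0833 ± 0.0493 TPM in vehicle kidneys.

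**Figure D4:**
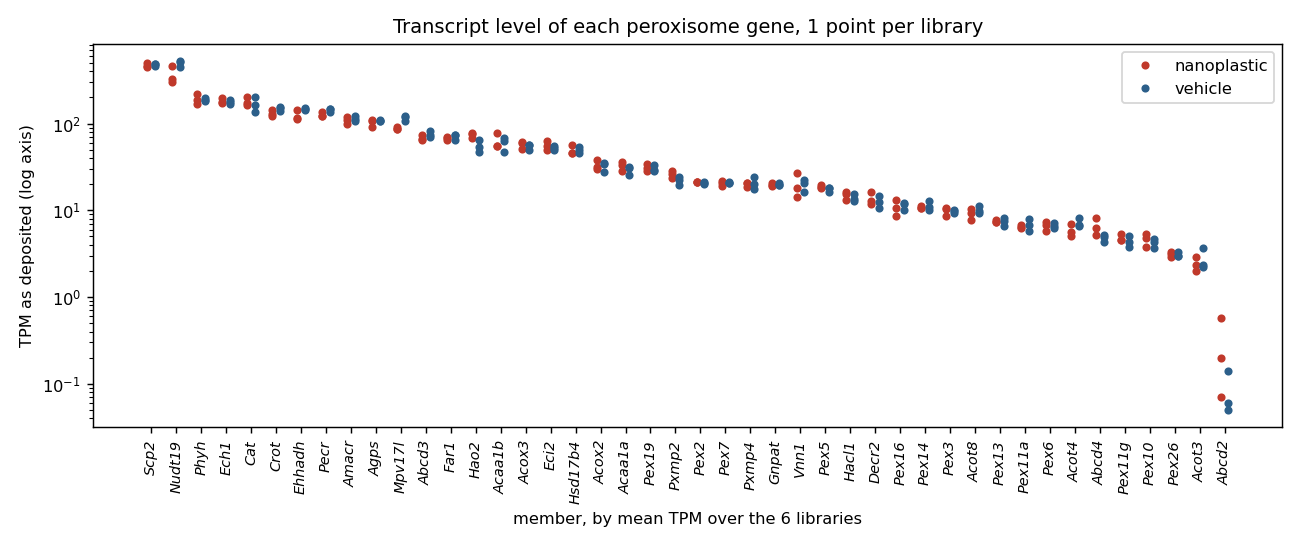
TPM as deposited of all 44 members on a log axis, ordered by the mean over the 6 libraries, with nanoplastic libraries (red) left of vehicle libraries (blue) for each gene. Scp2 and Nudt19 are the most abundant, most peroxins lie in the right part of the plot, and Abcd2 is the rarest.

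Other genes of the organelle, taken from a list that excludes the 44, were measured beside them. Of 39 such genes 36 were tested, 0 had an edgeR adjusted p under 0.05 and 0 an unadjusted p under 0.05, with 16 positive and 20 negative estimates and a median log2 fold change of -0.02. Of all genes tested with edgeR 7.19% met the unadjusted threshold. DESeq2 likewise gave 0 at an unadjusted p under 0.05 in either direction, against 1.3% of all its genes higher and 1.62% lower. Tmem135, a membrane protein of peroxisomes and mitochondria, was the 1 gene of the list whose groups were apart, or 2.8%, against 12.9% of all genes tested, at 89.5, 91.1 and 88.04 CPM in nanoplastic mice, against 93.9, 101.5 and 97.9 CPM in vehicle mice.

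Ppara, which encodes PPAR alpha, measured 48.8, 69.0 and 68.9 CPM in nanoplastic mice, against 57.9, 52.9 and 66.7 CPM in vehicle mice (log2 fold change 0.07, SE 0.13). Rxra, its partner, had a log2 fold change of 0.04 (SE 0.07), and Ppargc1a, a coactivator, of 0.01 (SE 0.08). Of 32 genes of this pathway outside the peroxisome 29 were tested, 0 had an edgeR adjusted p under 0.05, and 2 had an unadjusted p under 0.05, Acadm and Cd36, both lower, or 6.9%, against 7.19% of all genes tested. That background counts both directions, and 3.5% of all genes tested were lower at the threshold. Groups were apart in 1 gene higher, or 3.4%, and in 4 lower, or 13.8%, against 6.54% and 6.32% of all genes. DESeq2 and limma-voom each gave 3 lower and 0 higher at an unadjusted p under 0.05. The shares of all genes that were lower were 1.62% with DESeq2 and 3.52% with limma-voom. The median over the 29 was -0.02, and the log2 fold changes were -0.28 (SE 0.08) for Acadm, the mitochondrial medium-chain acyl-CoA dehydrogenase, and -0.33 (SE 0.095) for Cd36, a fatty acid carrier of the cell membrane.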

How the data were processed

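For each library the authors deposited RSEM output giving expected counts, TPM and FPKM for every gene, per the file headers. The submitters' processing notes list STAR 2.7.9a, RSEM 1.3.3, FastQC and Trim Galore 0.6.6, and the build GRCm39. The annotation release and the strandedness are not given in the sources used here, and 20 members share exon positions with another gene in GENCODE vM21, mostly on the opposite strand. The deposited TPM values were used for levels between genes. The 2 genes with the highest TPM took 55.5% to 59.4% of each library's TPM, which moves every other TPM value. The FPKM values deposited by the authors were not used.

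Symbols came from GENCODE vM21 (51884 of 57180 IDs). Expected counts were rounded to whole numbers. After filterByExpr and TMM factors, the quasi-likelihood test of edgeR 4.0.16 (R 4.3.3) compared the groups, with Benjamini-Hochberg adjustment over all genes and a threshold of 0.05. Standard errors follow from the fold change and its F statistic, and intervals are 95%. The common dispersion corresponded to a biological coefficient of variation of 0.105. The fit was tested on simulated data. Alternatives were RLE scaling, library size alone, no filter, DESeq2 1.42.0, limma-voom (limma 3.58.1), the replicate number as a block, each library left out, and, added later, 2 libraries left out together and TPM in place of CPM.

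The members and lists were chosen with earlier results of these data known. Values in every library are given for members at an unadjusted p under 0.05, for those whose groups did not overlap and for the most abundant of each role. Other genes given by library were chosen after their values were seen. Promoter sequences are RefSeq's on GRCm38.p6, with 35 of 44 members matched. The import signals of the proteins were not analysed here. 1 gene of the other peroxisomal list is not reported here by name.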

Additional observations from a re-analysis of the deposited data

How the results depend on the processing

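The design gives 3 mice per group. The intervals rest on the spread between mice, which edgeR's fit pools in part over all genes tested. Abcd2, the rarest member, had the widest interval. Same-numbered libraries correlated at 0.04, -0.02 and 0.10 in their deviations from the group mean. Pairs with different numbers ran from -0.12 to 0.08. With 3 libraries per group these values cannot decide whether the numbers mark a pairing. With the replicate block edgeR called 0 genes, and 7 members were lower and 2 higher at an unadjusted p under 0.05. The shares of all genes were 3.5% lower and 3.91% higher. Of the other peroxisomal genes 1 was lower at that threshold.

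Calls over all genes, 0 in the main test, came to 100 higher and 107 lower without the filter (members 1 and 3), and to 20 higher and 35 lower with DESeq2 (members 1 and 1). Without nanoplastic 1 and vehicle 3 together they came to 11 higher and 16 lower, with 0 members. The cause of these differences was not tested. Without the filter 1 PPAR pathway gene was higher and 3 other peroxisomal genes lower at an unadjusted p under 0.05. The shares of all genes were 3.55% higher and 3.12% lower. Without nanoplastic 1 and vehicle 3 together 4 members, 1 other peroxisomal gene and 5 PPAR pathway genes were higher at that threshold, against 5.4% of all genes. The groups were then apart in 8 members higher and 12 lower, against 21.5% and 20.2% of all genes. In TPM the groups were apart in 1 member higher and 2 lower, against 6.82% and 2.65% of all genes.

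With each library left out in turn, called genes ran from 0 to 3 higher and from 0 to 2 lower. Members at an unadjusted p under 0.05 ran from 1 to 3 higher and from 5 to 8 lower. The shares of all genes at that threshold were 2.12% to 5.0% higher and 1.71% to 4.29% lower. Members apart ran from 2 to 6 higher and from 7 to 11 lower, against 9.48% to 13.6% and 8.90% to 13.3% of all genes. At the unadjusted threshold, to be set against the same shares of all genes, other peroxisomal genes ran from 0 to 1 higher and from 0 to 2 lower. PPAR pathway genes ran from 0 to 2 higher.

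Role medians (log2) moved with the library left out from -0.077 to -0.005 for peroxins, -0.119 to 0.054 for core and -0.073 to 0.051 for auxiliary enzymes, -0.197 to 0.083 for membrane and other proteins, and -0.086 to -0.005 for all members. Library size alone gave -0.006 for peroxins, 0.017 for auxiliary enzymes and -0.014 for all members. Without nanoplastic 1 and vehicle 3 together they were -0.009 for peroxins, 0.037 for core and 0.032 for auxiliary enzymes, -0.057 for transport and turnover, 0.145 for membrane and other proteins and 0.010 for all members. Of the members given by library, Pex19 (0.007) and Ech1 (0.018) reversed with library size alone, and Ech1 (0.032), Phyh (0.036), Abcd2 (-0.44) and Vnn1 (0.15) without nanoplastic 1 and vehicle 3 together. Abcd2 (-0.999) and Vnn1 (0.10) also reversed without nanoplastic 1 alone. With each library left out, Ech1 ran from -0.067 to 0.051 and Phyh from -0.13 to 0.064, both above 0 without nanoplastic 1 alone, and Cat from -0.047 to 0.136, with -0.025 without nanoplastic 2 and -0.047 without vehicle 2.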
